A study of Mus musculus with 48 samples.

Results

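Liver endothelial cells line the hepatic sinusoids, take up waste macromolecules from blood through scavenger receptors, and pass signals to hepatocytes. Wnt ligands and R-spondin 3 from central vein and nearby sinusoidal endothelium maintain the pericentral hepatocyte programme, and BMP2 and BMP6 from sinusoidal endothelium induce hepcidin, the hormone that limits iron entry into blood. The 37 genes described here were taken by name from the table of 49315 genes. They comprise 8 sinusoidal scavenger and identity genes, 9 junction, adhesion and other pan-endothelial genes, 5 VEGF and angiopoietin receptors, 5 transcription factors, 6 angiocrine ligands, and 4 large-vessel and capillary genes.

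Poly(A) RNA was sequenced from livers of male and female C57BL/6J mice, an inbred strain, in 8 groups of 6. Mixture mice received TCDD at 10 ng/kg, the dibenzofuran PeCDF at 80 ng/kg and the polychlorinated biphenyl PCB126 at 140 ng/kg once a week, and vehicle mice received the vehicle. Each exposure was given on a high-fat diet (HFD) and on a low-fat diet (LFD) in each sex, and livers were taken after 12 weeks. The 8 groups were therefore male HFD mixture, male HFD vehicle, male LFD mixture, male LFD vehicle, female HFD mixture, female HFD vehicle, female LFD mixture and female LFD vehicle. The labels used here do not state the ages of the mice. The values are TPM, each gene's share of the RNA corrected for its length, so a level is relative to all other RNA of the same liver. Changes are differences of mean log2(TPM + 1), tested with limma over 15820 genes and called at a Benjamini-Hochberg adjusted p under 0.05.

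The exposure was visible in its classical targets, the dioxin-inducible cytochrome P450 genes. Cyp1a1 averaged 139 TPM in male LFD mixture livers and 1.73 TPM in male LFD vehicle livers, and it passed the test in all 4 sex and diet combinations. Its levels with mixture were much lower on HFD. There it averaged 4.66 TPM with mixture and 0.846 TPM with vehicle in males, and 3.28 and 0.862 TPM in females. The 37 genes summed to between 486 and 982 TPM in a liver, while 9 hepatocyte markers summed to between 60607 and 159519 TPM. In whole liver, fewer endothelial cells and less RNA per endothelial cell cannot be told apart. Several of these genes are also transcribed by other liver cells. Skeletal muscle transcripts stood out in 3 libraries, male HFD mixture replicate 6, female LFD vehicle replicate 3 and female LFD mixture replicate 3, with sums of 21854, 8338 and 1808 TPM against at most 715 TPM elsewhere. The last of these also held 1641 TPM of adrenal cortex markers, and 1 male LFD mixture library held 91.9 TPM, against at most 6.85 TPM in the other libraries. Calls of named genes that ended without these 3 libraries are given beside the result.

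All 37 genes passed the filter of 1 TPM in at least 6 libraries. Wnt9b reached 1 TPM in 13 of the 48 libraries, Emcn in 41, and Sox17 and Wnt2 in 47. The water channel gene Aqp1 had the highest mean over all livers at 93.5 TPM, and Wnt9b had the lowest at 0.874 TPM. Within the other blocks, the sinusoidal lectin gene Clec4g averaged 51.6 TPM and the hyaluronan receptor gene Lyve1 15.2 TPM. Eng, the endoglin coreceptor for BMP9, averaged 49.8 TPM and Emcn, encoding the sialomucin endomucin, 1.48 TPM. Kdr, encoding VEGF receptor 2, averaged 14.7 TPM and Flt1, encoding VEGF receptor 1, 2.98 TPM. Among transcription factors Maf, known as a determinant of sinusoidal identity, averaged 17.1 TPM and Sox17 1.63 TPM. Bmp2 was the ligand with the highest level at 13.7 TPM, and the clotting factor carrier gene Vwf averaged 2.12 TPM.

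The group with the highest mean was female LFD vehicle for 21 of the 37 genes, male HFD mixture for 10, female LFD mixture for 5 and female HFD mixture for 1. The lowest mean fell in female HFD vehicle livers for 13 genes and in male LFD mixture livers for 12. The highest group mean exceeded the lowest by between 1.32-fold and 3.28-fold, and Lyve1 had the widest range.

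**Figure D1:**
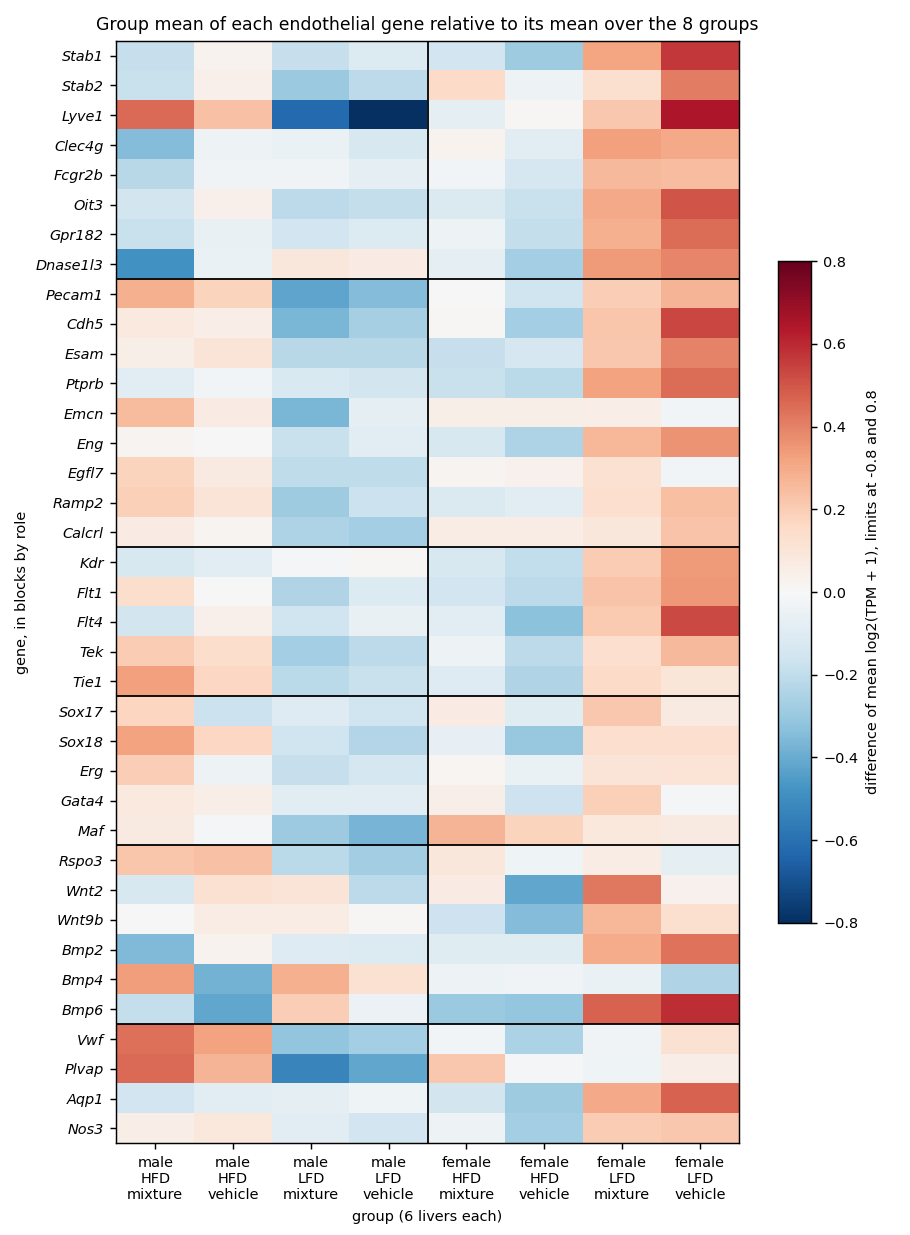
Mean log2(TPM + 1) of each of the 37 genes (rows, in blocks by role) in each group of 6 livers (columns), as the difference from the gene's mean over the 8 groups. Female LFD livers, on the right, held the highest group mean for 26 of the genes, and male HFD mixture livers, on the left, for 10.

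The promoters of 4 genes named in the results are shown: Stab1 and Stab2, a pair of scavenger receptor paralogs, Bmp6, the ligand with the largest fall on the high-fat diet in females, and Bmp4, the gene that passed the test for the mixture. Each runs from 250 bases before to 50 after the RefSeq transcription start (GRCm38.p6). Capitals mark AGGAAG or its reverse complement CTTCCT, a core of endothelial ETS factor sites, and GCGTG or its reverse complement CACGC, the core bound by the dioxin receptor AhR with ARNT. The Stab1 promoter lies on the minus strand of chr14:31168592-31168891, that of Stab2 on the minus strand of chr10:87007893-87008192, that of Bmp6 on the plus strand of chr13:38345466-38345765 and that of Bmp4 on the minus strand of chr14:46390620-46390919.
Stab1: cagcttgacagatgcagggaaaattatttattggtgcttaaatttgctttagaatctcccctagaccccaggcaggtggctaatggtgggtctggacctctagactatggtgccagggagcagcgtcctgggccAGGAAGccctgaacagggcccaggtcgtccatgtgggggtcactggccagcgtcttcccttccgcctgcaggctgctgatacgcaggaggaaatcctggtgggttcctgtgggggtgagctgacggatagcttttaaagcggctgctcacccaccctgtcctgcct
Stab2: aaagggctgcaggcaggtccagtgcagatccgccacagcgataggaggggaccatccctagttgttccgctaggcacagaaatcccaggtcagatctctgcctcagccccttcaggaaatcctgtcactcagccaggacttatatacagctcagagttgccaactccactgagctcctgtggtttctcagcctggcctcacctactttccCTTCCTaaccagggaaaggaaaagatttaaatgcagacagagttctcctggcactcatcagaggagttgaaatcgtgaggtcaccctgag
Bmp6: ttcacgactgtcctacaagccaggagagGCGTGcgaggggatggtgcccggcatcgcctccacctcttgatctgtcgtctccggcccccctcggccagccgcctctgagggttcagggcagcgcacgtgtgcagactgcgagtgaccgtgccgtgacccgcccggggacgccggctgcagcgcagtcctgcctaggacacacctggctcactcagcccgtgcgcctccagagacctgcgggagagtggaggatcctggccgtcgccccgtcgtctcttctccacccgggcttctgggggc
Bmp4: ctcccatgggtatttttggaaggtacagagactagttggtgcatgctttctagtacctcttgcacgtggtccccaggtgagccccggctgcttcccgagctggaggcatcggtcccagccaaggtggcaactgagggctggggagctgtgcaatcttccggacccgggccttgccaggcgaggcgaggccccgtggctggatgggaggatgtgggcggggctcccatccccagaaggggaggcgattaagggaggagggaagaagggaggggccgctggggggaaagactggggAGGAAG
Stab1, Stab2 and Bmp4 each held 1 ETS core and no AhR core in this window, and Bmp6 held 1 AhR core and no ETS core. RefSeq promoter windows were at hand for 19 of the 37 genes, of which 12 held the ETS core and 7 the AhR core in at least 1 window. Counted by window, the ETS core was present in 56.5% of the 23 windows of these genes and in 35.4% of all 32851 windows, and the AhR core in 30.4% of these genes' windows and 32.4% of all. A match describes the letters only.

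The comparison of mixture with vehicle asked whether dioxin-like compounds changed the endothelial genes. Of the 37 genes, 0 passed the test in males on LFD, 1 in males on HFD, 0 in females on LFD, 0 in females on HFD and 0 for the mean over these combinations. Over all genes tested the shares called in the same comparisons were 0.0379%, 0.0948%, 0.0379%, 0.0126% and 0.0948%. At an unadjusted limma p under 0.05 the counts among the 37 genes were 1, 6, 3, 1 and 4. Among all 15820 genes tested they were 830, 1486, 1503, 670 and 1850. Median log2 changes of the 37 genes were 0.00 in males on LFD, 0.03 in males on HFD, -0.10 in females on LFD and 0.13 in females on HFD, beside 0.00, 0.03, 0.02 and 0.03 over all genes. The depth of these libraries is unknown, and the 95% intervals of the log2 changes reached between -0.67 and 1.02 in males on HFD and between -0.90 and 0.80 in females on LFD, the widest bounds among the 37 genes.

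The gene called was Bmp4, a ligand of the BMP family. Its lowest, median and highest levels were 3.22, 4.44 and 6.04 TPM in male HFD mixture livers, against 1.46, 2.52 and 3.36 TPM in male HFD vehicle livers. The groups overlapped at their edges, and all 6 mixture livers lay above the vehicle mean. The log2 change was 0.71 ± 0.15 (SE, limma adjusted p = 0.0381). The call was lost with trimmed-mean scaling (adjusted p = 0.0555), with no filter (0.0695) and when only these 2 groups were fitted (0.257). Male livers on LFD had 3.33, 4.47 and 5.24 TPM with mixture and 2.59, 3.53 and 5.79 TPM with vehicle, and those groups overlapped widely. The difference of the mixture effects on Bmp4 between diets in males was 0.55 ± 0.22 and did not pass the test (limma adjusted p = 0.516). No cell-type marker of the hepatocyte, Kupffer cell, stellate cell or cholangiocyte lists passed the test in males on HFD (limma), where 1 of the 6 cholangiocyte markers did without the 3 libraries with muscle transcripts. An unadjusted limma p under 0.05 was found for 6 of 11 stellate cell and 4 of 6 cholangiocyte markers, beside 1486 of all 15820 genes. The median log2 changes of these 2 lists were 0.38 and 0.64. The part of these cell types in the Bmp4 result was not tested.

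Dnase1l3, encoding a secreted DNase made by sinusoidal endothelium and macrophages, was next. It had 14.3, 16.7 and 21.1 TPM in male HFD mixture livers against 20.2, 23.2 and 27.9 TPM in male HFD vehicle livers, a log2 change of -0.43 ± 0.10 (limma adjusted p = 0.0636). With trimmed-mean scaling it was called instead of Bmp4 (adjusted p = 0.0247). The other genes of males on HFD with an unadjusted p under 0.05 were Clec4g, Sox17, Erg and Bmp2, none of which passed after adjustment. The difference of mixture effects between diets passed for 0 of the 37 genes in males and 0 in females by limma, against 0.00632% of all genes in each.

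In the pathway lists, which hold 126 measured genes in 5 lists, the mixture changed Cyp1a2 alone. This hepatocyte gene stands in the list of Wnt response and pericentral genes, is a known dioxin target, and rose 2.24 ± 0.13 (log2) in males on LFD, 2.32 ± 0.13 in males on HFD, 2.85 ± 0.13 in females on LFD and 2.63 ± 0.13 in females on HFD (limma; the largest of the 4 adjusted p was 3.3e-17, in males on LFD).

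Many of the genes fell on the high-fat diet in females. In males more of the genes rose than fell, which also held for all genes tested. Among females given vehicle, 25 of 37 genes fell and 0 rose on HFD, against 13.5% and 14.4% of all genes tested. Among females given mixture, in other animals, 11 fell and 0 rose, against 7.74% and 11.5% of all genes. All 11 were among the 25, which makes 100% of the 11 and 44% of the 25. The median log2 change of the 37 genes was -0.45 with vehicle and -0.25 with mixture, beside -0.01 and 0.00 over all genes. In males, 10 rose and 1 fell with vehicle, against 25.6% and 5.82% of all genes, and 17 rose and 2 fell with mixture, against 31.7% and 6.92% of all genes. The share that rose in males given vehicle, 27%, was thus near that of all genes. The male medians were 0.14 and 0.20, beside 0.11 and 0.15 over all genes. The HFD and LFD livers did not overlap for 12 lower genes in females given vehicle and 3 in females given mixture, against 4.87% and 3.56% of all genes. In males they did not overlap for 3 higher genes with vehicle, against 13.4% of all genes, and for 8 higher and 1 lower with mixture, against 12.9% and 2.38%.

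The male counts depended on the scaling. Trimmed-mean scaling, which sets the bulk of genes level, moved the median of all genes by 0.12 in males given vehicle and by 0.15 in males given mixture. With it 6 of the 37 genes rose and 3 fell in males given vehicle, beside 2068 and 1825 of all 15820 genes. In males given mixture 7 rose and 5 fell after scaling, beside 2463 and 2554 of all genes. The scaled median of the 37 genes in males given mixture was 0.00. The 7 that still rose were Lyve1, Pecam1, Emcn, Ramp2, Tie1, Vwf and Plvap, so that the calls of Cdh5, Esam, Egfl7, Flt1, Tek, Sox17, Sox18, Erg, Maf and Rspo3 in males given mixture rest on the unscaled values. Without the 3 libraries with muscle transcripts 15 rose and 3 fell there, and the calls of Cdh5, Esam and Flt1 were lost. In females 25 genes fell with vehicle and 12 with mixture after scaling, beside 2199 and 1411 of all genes. Without the 3 libraries 23 fell in females given vehicle, where Lyve1 and Vwf were lost. None of the genes called without scaling changed its sign with it. The library names use some of the same numbers on both diets, and the labels do not say whether both diets were studied at one time. A difference between separate cohorts and the diet therefore cannot be told apart.

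**Figure D2:**
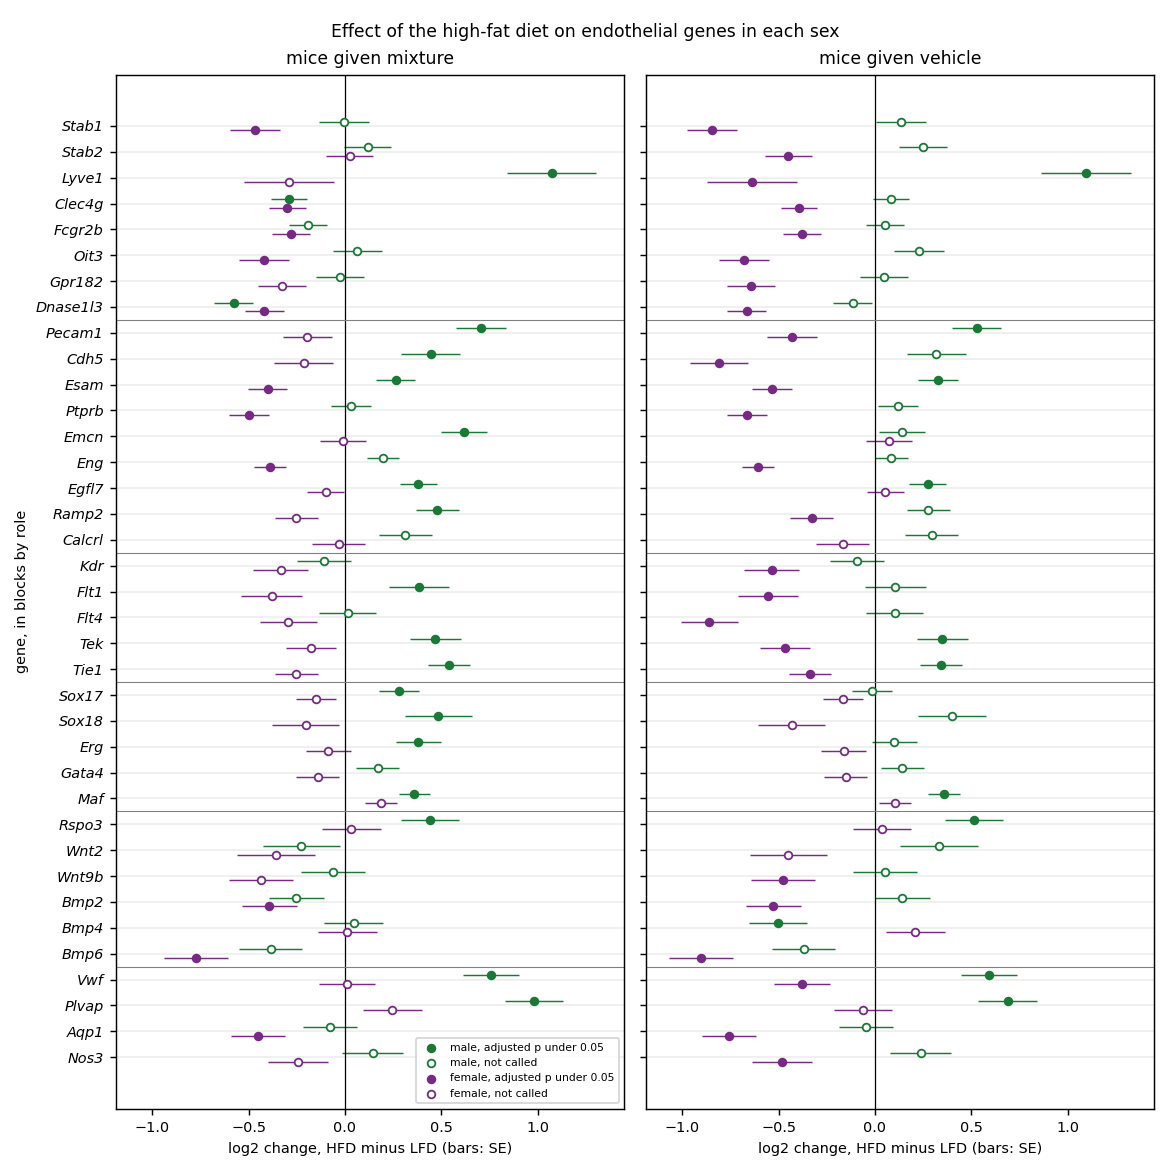
Log2 change on HFD relative to LFD (x axis) for each of the 37 genes (y axis, in blocks by role) in males and females, given mixture (left) or vehicle (right); bars are standard errors and filled points have an adjusted p under 0.05. Female points lie mostly left of 0, with 25 lower calls in vehicle mice (67.6%, against 13.5% of all genes tested). Male points lie mostly right of 0, with 10 higher calls in vehicle mice (27%, near the 25.6% of all genes tested).

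All 8 scavenger and identity genes fell on HFD in females given vehicle, and 5 of them did so in females given mixture. Of all genes tested, 13.5% and 7.74% fell there. Stab1, a scavenger receptor for modified lipoproteins, had 13.7, 15.8 and 18.6 TPM (lowest, median and highest) in female HFD vehicle livers against 20.2, 30.3 and 38.8 TPM in female LFD vehicle livers. The groups did not overlap, and the log2 change was -0.85 ± 0.13 (limma adjusted p = 2.8e-06). In males given vehicle the same receptor had 16.8, 19.3 and 23.5 TPM on HFD against 15.9, 17.6 and 21.5 TPM on LFD, and it was not called. In females given vehicle Oit3, a sinusoidal zona pellucida domain gene, fell by 0.68 ± 0.13, Dnase1l3 by 0.67 ± 0.10, and the chemokine-scavenging receptor gene Gpr182 by 0.64 ± 0.13 (log2; limma adjusted p of 7.5e-05, 1.8e-06 and 1.1e-04). The hyaluronan receptor Stab2 fell by 0.45, Clec4g by 0.39 and the inhibitory Fc receptor gene Fcgr2b by 0.38. In females given mixture Stab1 fell by 0.47, Oit3 by 0.42, Dnase1l3 by 0.42, Clec4g by 0.30 and Fcgr2b by 0.28; the last had an adjusted p of 0.052 without the 3 libraries with muscle transcripts.

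Lyve1, on chromosome 7 (GRCm38 chr7:110850607-110863239, minus strand), was called in opposite directions in the sexes. It had 11.6, 16.6 and 22.3 TPM in male HFD vehicle livers against 4.93, 7.04 and 9.76 TPM in male LFD vehicle livers, with no overlap and a log2 change of 1.10 ± 0.23 (limma adjusted p = 2.7e-04). In male mixture livers it had 11.0, 20.8 and 30.5 TPM on HFD against 7.09, 8.66 and 10.3 TPM on LFD, again without overlap. In females given vehicle it had 12.1, 14.0 and 16.1 TPM on HFD against 10.2, 28.5 and 32.7 TPM on LFD, a log2 change of -0.64 ± 0.23 (limma adjusted p = 0.036) that was lost without the 3 libraries with muscle transcripts (0.0633), without the filter (0.0783) and with only these groups fitted (0.0959).

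Dnase1l3 and Clec4g were the 2 genes that fell in males given mixture. Dnase1l3 had 14.3, 16.7 and 21.1 TPM in male HFD mixture livers against 21.5, 26.4 and 29.7 TPM in male LFD mixture livers, with no overlap and a log2 change of -0.58 ± 0.10 (limma adjusted p = 1.1e-05). Clec4g changed by -0.29 ± 0.09. With trimmed-mean scaling Dnase1l3 was also called lower in males given vehicle, at -0.26.

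**Figure D3:**
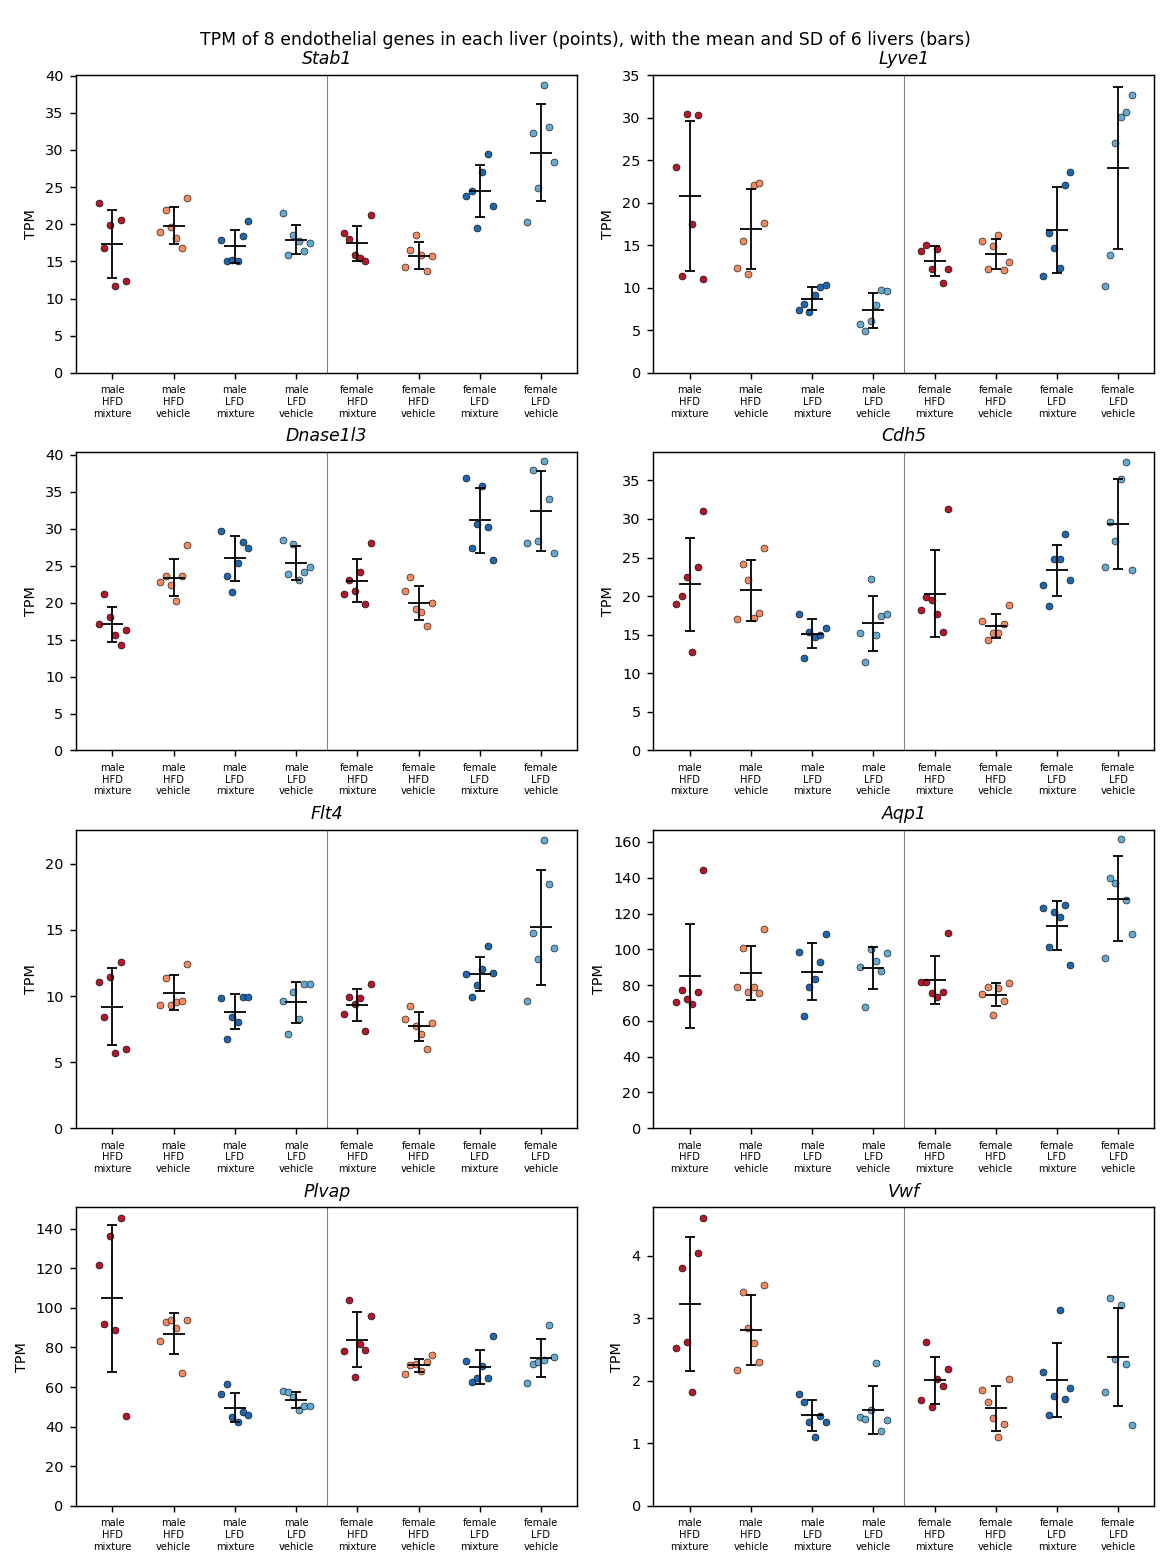
TPM of 8 genes (panels; y axis) in each liver (points) of the 8 groups (x axis), with bars for the mean and SD of 6 livers. In females Stab1, Dnase1l3, Cdh5, Flt4 and Aqp1 were lower in HFD vehicle than in LFD vehicle livers, and in males Lyve1, Plvap and Vwf were higher in HFD than in LFD livers.

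Of the 9 pan-endothelial genes, 6 fell and 0 rose on HFD in females given vehicle, against 13.5% and 14.4% of all genes. Cdh5, encoding the junction protein VE-cadherin, had 14.4, 15.9 and 18.8 TPM in female HFD vehicle livers against 23.3, 28.3 and 37.4 TPM in female LFD vehicle livers, with no overlap and a log2 change of -0.81 ± 0.15 (limma adjusted p = 7.0e-05). The endothelial phosphatase gene Ptprb fell by 0.66 ± 0.11, Eng by 0.61 ± 0.08, the junction gene Esam by 0.53, Pecam1, encoding the adhesion protein CD31, by 0.43 and the adrenomedullin coreceptor gene Ramp2 by 0.33. In females given mixture Ptprb fell by 0.50, Esam by 0.40 and Eng by 0.39. Emcn, the secreted factor gene Egfl7 and the adrenomedullin receptor gene Calcrl had log2 changes of 0.07, 0.05 and -0.17 in females given vehicle and were not called.

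In males 3 of the 9 rose with vehicle (33.3%) and 6 with mixture (66.7%), against 25.6% and 31.7% of all genes. Pecam1 rose by 0.53 ± 0.13 (log2) in males given vehicle, with 12.0 ± 1.97 TPM on HFD and 8.01 ± 1.34 TPM on LFD (SD, n = 6 each), and by 0.71 ± 0.13 in males given mixture. Esam and Egfl7 rose by 0.33 and 0.27 with vehicle, calls that trimmed-mean scaling ended (adjusted p = 0.156 and 0.307). With mixture Emcn rose by 0.62 ± 0.12, Ramp2 by 0.48 ± 0.11, Egfl7 by 0.38 and Esam by 0.26. The calls of Egfl7 and Esam with mixture ended with trimmed-mean scaling, and that of Esam also without the 3 libraries with muscle transcripts. Cdh5 rose by 0.45 ± 0.15 (adjusted p = 0.018), but not without the 3 libraries with muscle transcripts (0.0844) or with trimmed-mean scaling (0.176). Emcn averaged 1.95 TPM in male HFD mixture livers and 0.901 TPM in male LFD mixture livers, so its log2 change was compressed by the added 1 TPM.

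All 5 VEGF and angiopoietin receptor genes fell on HFD in females given vehicle, against 13.5% of all genes, and 0 were called in females given mixture. Flt4, encoding VEGF receptor 3, had 6.00, 7.85 and 9.23 TPM in female HFD vehicle livers against 9.66, 14.2 and 21.8 TPM in female LFD vehicle livers, with no overlap and a log2 change of -0.86 ± 0.15 (limma adjusted p = 1.8e-05). Flt1 fell by 0.56, Kdr by 0.54, Tek, the angiopoietin receptor gene, by 0.47 and Tie1, its partner receptor, by 0.34. In males the angiopoietin receptor genes were called in the other direction. Tek rose by 0.35 with vehicle and 0.47 with mixture, and Tie1 by 0.34 and 0.54; in males given vehicle both calls ended with trimmed-mean scaling (adjusted p = 0.207 and 0.163), and in males given mixture that of Tek did (0.0637). Flt1 rose by 0.38 in males given mixture, where replicate 6, a library with muscle transcripts, had 7.96 TPM against at most 3.14 TPM in the other 5. Kdr and Flt4 were not called in males.

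None of the 5 transcription factor genes was called on HFD in females with either exposure (limma). Maf rose by 0.36 ± 0.08 on HFD in males given vehicle and by 0.36 ± 0.08 in males given mixture, with 16.7 ± 1.12 TPM in male HFD vehicle livers and 12.9 ± 1.56 TPM in male LFD vehicle livers (SD, n = 6 each). With mixture Sox18 rose by 0.48, the ETS factor gene Erg by 0.38 and Sox17 by 0.28. With trimmed-mean scaling the calls of Maf, Sox18, Erg and Sox17 in males given mixture all ended (limma adjusted p = 0.0827, 0.171, 0.154 and 0.26). Gata4, which directs sinusoidal specification, was not called in either sex.

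Among the large-vessel and capillary genes, Plvap, encoding the protein of fenestral and caveolar diaphragms, had 67.2, 91.4 and 94.1 TPM in male HFD vehicle livers against 48.5, 52.8 and 57.9 TPM in male LFD vehicle livers. The groups did not overlap, and the log2 change was 0.69 ± 0.15 (limma adjusted p = 4.1e-04). In males given mixture it had 45.2, 107 and 146 TPM on HFD against 42.1, 46.6 and 61.4 TPM on LFD, a log2 change of 0.98 ± 0.15, with 5 of 6 HFD livers above the LFD mean. Vwf had 2.17, 2.73 and 3.53 TPM in male HFD vehicle livers against 1.19, 1.40 and 2.29 TPM in male LFD vehicle livers, and rose by 0.59 ± 0.15 with vehicle and 0.76 ± 0.15 with mixture. In females given vehicle Vwf fell by 0.38 and Nos3, the endothelial nitric oxide synthase gene, by 0.48, while Plvap had a log2 change of -0.06. The Vwf call in these females was lost without the 3 libraries with muscle transcripts. Aqp1 had 63.5, 76.5 and 81.0 TPM in female HFD vehicle livers against 95.1, 132 and 162 TPM in female LFD vehicle livers, with no overlap and a log2 change of -0.76 ± 0.14 (limma adjusted p = 5.6e-05). It fell by 0.45 in females given mixture and was not called in males.

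Bmp6 was the ligand with the largest fall. It had 3.59, 4.41 and 5.60 TPM in female HFD vehicle livers against 6.03, 9.49 and 13.7 TPM in female LFD vehicle livers, without overlap and with a log2 change of -0.90 ± 0.17 (limma adjusted p = 4.8e-05). In females given mixture the levels were 3.09, 4.63 and 5.92 TPM on HFD and 4.43, 9.16 and 10.5 TPM on LFD, a log2 change of -0.77 ± 0.17, and 1 LFD liver lay among the HFD livers. That liver was replicate 3, a library with muscle transcripts. In males the log2 changes were -0.37 ± 0.17 with vehicle and -0.39 ± 0.17 with mixture and were not called. Both were called lower with trimmed-mean scaling (-0.50 and -0.56) and without the 3 libraries with muscle transcripts (-0.37 and -0.52). The difference between the sexes in the diet effect on Bmp6 was 0.53 ± 0.23 with vehicle and did not pass the test (limma adjusted p = 0.111).

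Bmp2 had 10.4, 12.1 and 15.9 TPM in female HFD vehicle livers against 12.8, 18.1 and 28.5 TPM in female LFD vehicle livers and fell by 0.53, and it fell by 0.39 in females given mixture (limma adjusted p = 0.0455), a call that ended with no filter (0.0914) and with the replicate block (0.0554). Bmp4 fell by 0.50 ± 0.15 on HFD in males given vehicle, with 1.46, 2.52 and 3.36 TPM on HFD against 2.59, 3.53 and 5.79 TPM on LFD. These male HFD vehicle livers, with the lowest group mean of Bmp4 (2.41 TPM), are also those of its mixture result, so the results are not independent. Rspo3, encoding the R-spondin that amplifies Wnt signals, had 4.82, 5.81 and 6.26 TPM in male HFD vehicle livers against 3.08, 3.42 and 5.09 TPM in male LFD vehicle livers, and rose by 0.51 ± 0.15 with vehicle and 0.44 ± 0.15 with mixture. The call with mixture ended with trimmed-mean scaling (adjusted p = 0.128). Wnt9b, a central vein Wnt, had 0.244, 0.447 and 0.593 TPM in female HFD vehicle livers against 0.370, 0.938 and 2.10 TPM in female LFD vehicle livers and fell by 0.48 ± 0.17. Those levels lie near or below 1 TPM, where few reads support a value. Wnt2, the other endothelial Wnt, had 0.977, 2.29 and 3.23 TPM on HFD against 1.65, 3.16 and 4.69 TPM on LFD in females given vehicle and was not called (log2 change -0.45 ± 0.20).

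**Figure D4:**
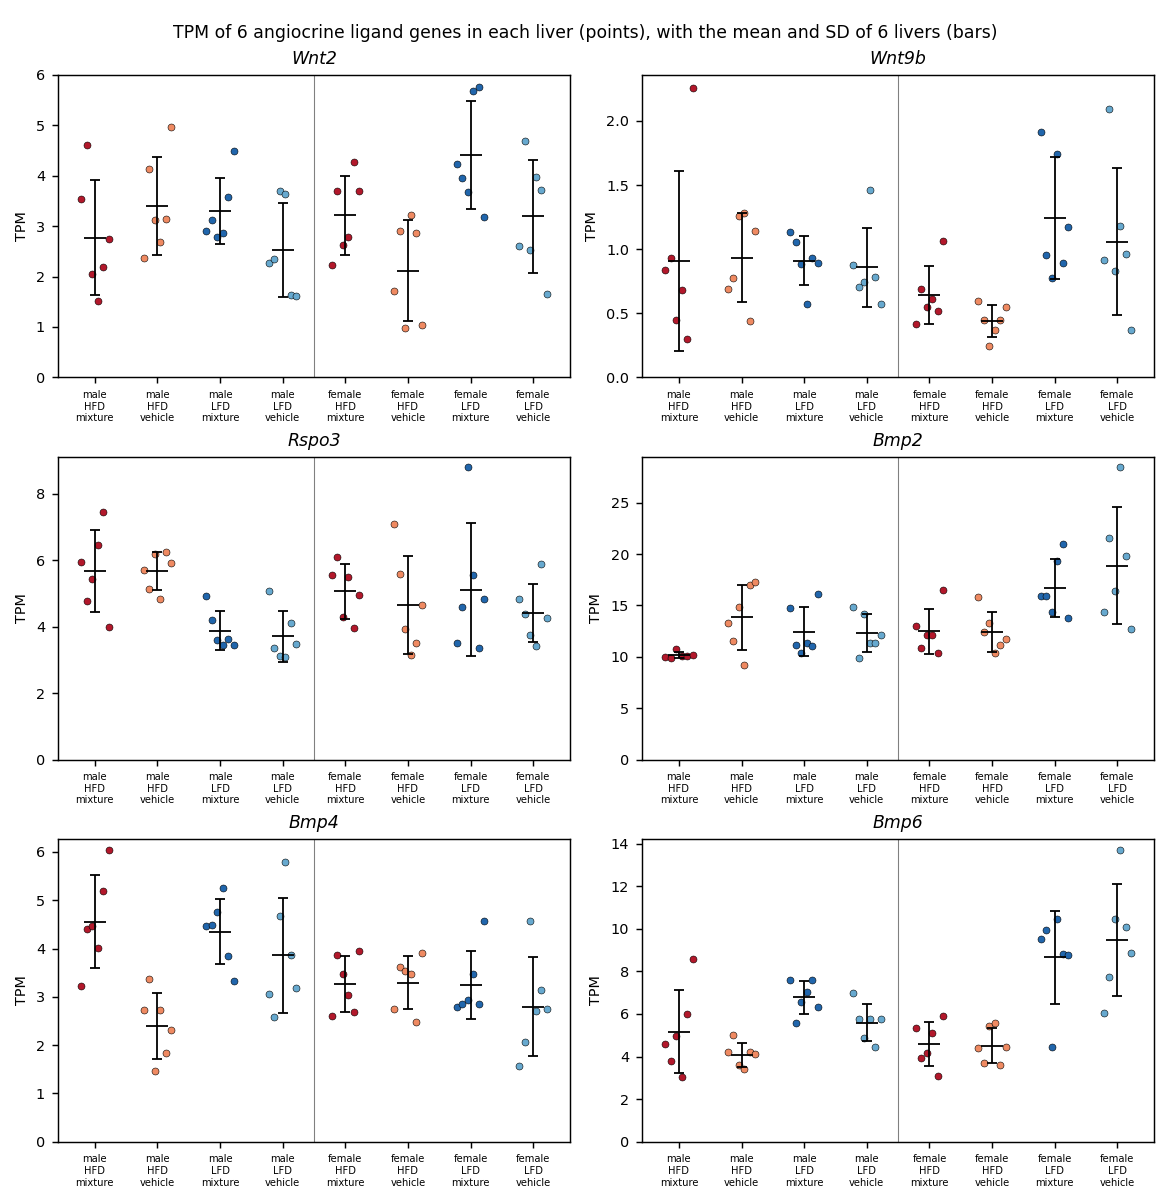
TPM of the 6 angiocrine ligand genes (panels; y axis) in each liver (points) of the 8 groups (x axis), with bars for the mean and SD of 6 livers. Bmp6 was lower in female HFD than in female LFD livers with either exposure, and Bmp4 was higher in male HFD mixture than in male HFD vehicle livers.

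Averaged over sex and exposure, 8 of the 37 genes rose and 14 fell on HFD, against 35% and 15.5% of all genes. With trimmed-mean scaling 5 rose and 15 fell, beside 3999 and 3887 of all 15820 genes. Bmp6 (-0.61), Plvap (0.46), Dnase1l3 (-0.44), Aqp1 (-0.33), Lyve1 (0.31), Stab1 (-0.29), Kdr (-0.27), Flt4 (-0.26), Bmp2 (-0.26), Rspo3 (0.26), Ptprb (-0.25) and Maf (0.25) had the largest log2 changes. Lyve1 lost its call with trimmed-mean scaling (limma adjusted p = 0.0921).

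The difference of the diet effects, the change in males minus that in females, was tested directly. With vehicle it was positive for 25 of the 37 genes and negative for 1, against 14.8% and 3.47% of all genes. With mixture it was positive for 17 and negative for 0, against 13.4% and 3.65% of all genes. The median differences were 0.68 and 0.43, beside 0.12 and 0.15 over all genes. Trimmed-mean scaling moved the median of all genes by 0.13 and 0.15. After scaling 17 were positive and 1 negative with vehicle, beside 1069 and 1031 of all 15820 genes. With mixture 9 were positive and 0 negative after scaling, beside 903 and 1152 of all genes. The 2 tests used different animals and shared 13 positive genes, 52% of those called with vehicle and 76.5% of those called with mixture.

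With vehicle the largest differences in log2 change were 1.73 ± 0.33 for Lyve1, 1.13 ± 0.22 for Cdh5, 0.98 ± 0.18 for Stab1, 0.97 ± 0.21 for Vwf, 0.96 ± 0.21 for Flt4 and 0.96 ± 0.18 for Pecam1. Oit3 (0.91), Esam (0.86), Sox18 (0.83), Tek (0.82), Ptprb (0.78) and Wnt2 (0.78) followed, and Bmp4 was the negative one at -0.71 ± 0.22 (limma adjusted p = 0.017). The male HFD vehicle livers of the mixture result on Bmp4 enter this value too. With mixture they were 1.36 ± 0.33 for Lyve1, 0.90 for Pecam1, 0.79 for Tie1, 0.76 for Flt1, 0.75 for Vwf, 0.74 for Plvap, 0.73 for Ramp2, 0.69 for Sox18, 0.67 for Esam, 0.66 for Cdh5, 0.64 for Tek and 0.63 for Emcn. With trimmed-mean scaling Wnt2 lost its call with vehicle (limma adjusted p = 0.129), and Plvap, Sox18, Cdh5 and Tek lost theirs with mixture. Without the 3 libraries with muscle transcripts 16 genes were called with mixture, and Cdh5 (0.0965), Tek (0.0601) and Erg (0.0974) lost their calls. All 8 scavenger and identity genes passed with vehicle and 1 of them, Lyve1, with mixture, while 6 and 8 of the 9 pan-endothelial genes did. All of these were positive, against 14.8% and 13.4% of all genes. Whether the exposure changed this difference was not tested.

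Levels in males and females differed mainly on the low-fat diet, and these comparisons use the same LFD livers as the diet comparisons. On LFD, 24 of the 37 genes were lower and 0 higher in males given vehicle, against 17.1% and 6.61% of all genes, and 23 were lower and 0 higher in males given mixture, against 16.6% and 4.92%. The median log2 differences were -0.44 and -0.37, beside -0.09 and -0.11 over all genes. The 2 sets shared 19 genes, 79.2% of the 24 and 82.6% of the 23. With trimmed-mean scaling 19 were lower and 1 higher with vehicle, beside 1641 and 1795 of all 15820 genes. With mixture 10 were lower and 1 higher after scaling, beside 1242 and 1544 of all genes. There scaling moved the median of all genes by -0.11.

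In LFD vehicle livers Lyve1 was lower in males by 1.51 on the log2 scale, with 7.35 ± 2.07 TPM in males and 24.1 ± 9.56 TPM in females (SD, n = 6 each; log2 difference -1.51 ± 0.23, limma adjusted p = 2.6e-06). The groups did not overlap for 8 of the 37 genes, against 6.84% of all genes that were lower in males without overlap. Log2 differences, males minus females, were -0.80 for Cdh5, -0.69 for Oit3, -0.67 for Stab1, -0.64 for Bmp6, -0.62 for Pecam1, -0.62 for Esam, -0.62 for Stab2, -0.59 for Ptprb, -0.59 for Flt4, -0.56 for Gpr182 and -0.54 for Bmp2. In LFD mixture livers they were -0.84 for Lyve1, -0.62 for Pecam1, -0.59 for Cdh5, -0.52 for Oit3, -0.50 for Stab1, -0.50 for Plvap, -0.47 for Flt1, -0.44 for Ptprb, -0.44 for Eng, -0.44 for Gpr182, -0.44 for Esam and -0.43 for Stab2. Of these, Plvap, Flt1, Gpr182 and Stab2 were not called with trimmed-mean scaling. The gene higher in males with that scaling was Bmp4 with either exposure.

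On HFD few genes separated the sexes. In HFD vehicle livers 2 of the 37 were higher in males and 0 lower, against 8.26% and 3.53% of all genes: Vwf at 0.58 ± 0.15 and Tie1 at 0.41 ± 0.11 (log2; limma adjusted p = 0.0057 and 0.0099). In HFD mixture livers 2 were higher and 2 lower, against 9.73% and 5.56% of all genes, namely Vwf at 0.46, Tie1 at 0.43, Dnase1l3 at -0.41 and Clec4g at -0.38; without the 3 libraries with muscle transcripts 4 were higher and 2 lower there, and Vwf was not called (adjusted p = 0.0823). Averaged over diet and exposure, 16 genes were lower in males and 0 higher, against 19% and 12.2% of all genes, and 18 were lower and 1 higher without the 3 libraries. Lyve1 (-0.40), Stab2 (-0.32), Maf (-0.30), Clec4g (-0.29), Bmp2 (-0.27), Oit3 (-0.25), Gpr182 (-0.25), Cdh5 (-0.25), Bmp6 (-0.23), Stab1 (-0.22), Calcrl (-0.21) and Dnase1l3 (-0.19) had the largest differences, and Bmp6 lost its call with trimmed-mean scaling (limma adjusted p = 0.0612).

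Markers of other liver cells moved in the same comparisons, in which the shares of all genes higher and lower are those given above for the 37 genes. In females given vehicle, 1 of 12 Kupffer cell and macrophage markers, 1 of 11 stellate cell markers and 6 of 9 hepatocyte markers were lower on HFD and 0 of each were higher. In males given vehicle, 6 of 12 Kupffer cell markers and 8 of 11 stellate cell markers were higher on HFD and 0 lower, while 6 of 9 hepatocyte markers were lower and 1 higher. In males given mixture 8 Kupffer cell and 10 stellate cell markers were higher and 0 lower, and 6 hepatocyte markers were lower. In females given mixture, where 11 endothelial genes fell, 3 of 12 Kupffer cell markers were higher and 1 lower, with a median log2 change of 0.51. There 2 of 11 stellate cell markers were higher and 1 lower, and 6 of 9 hepatocyte markers were lower. The summed stellate cell markers ranged from 540 to 960 TPM in male HFD mixture livers, from 495 to 561 TPM in male HFD vehicle livers, from 281 to 375 TPM in male LFD mixture livers and from 329 to 391 TPM in male LFD vehicle livers. The summed Kupffer cell markers ranged from 620 to 889 TPM in male HFD vehicle livers and from 341 to 776 TPM in male LFD vehicle livers, and from 620 to 1607 TPM in female LFD vehicle livers. On LFD with vehicle 11 of 12 Kupffer cell markers were lower in males than in females. None of the listed markers of these 3 cell types was at 0 throughout a group. The part of these cell types in the endothelial results was not tested.

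**Figure D5:**
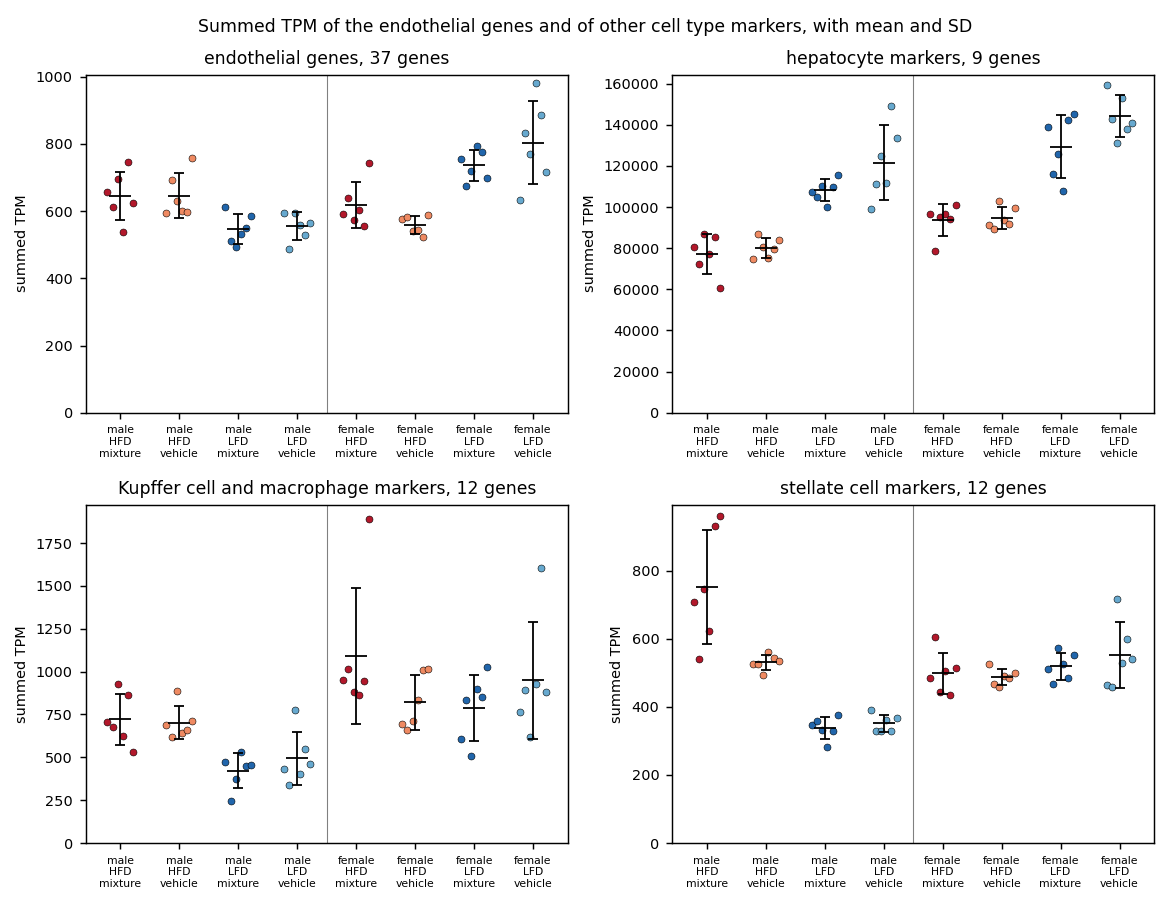
Summed TPM (y axis) of the 37 endothelial genes and of hepatocyte, Kupffer cell and stellate cell markers in each liver (points) of the 8 groups (x axis), with bars for the mean and SD of 6 livers. The endothelial sum was 559 ± 27 TPM in female HFD vehicle livers and 804 ± 124 TPM in female LFD vehicle livers, and the stellate sum was higher in male HFD than in male LFD livers.

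Other genes of the vascular pathways were described from 5 lists, by the members called. Of all genes tested, 14.4% rose and 13.5% fell on HFD in females given vehicle, and 25.6% rose and 5.82% fell in males given vehicle. With trimmed-mean scaling 2068 of all 15820 genes rose and 1825 fell in males given vehicle. The counts of each list are to be read against these values. Of 13 measured VEGF, angiopoietin and neuropilin genes, 3 fell (23.1%) and 0 rose on HFD in females given vehicle. Epas1, encoding the hypoxia factor HIF-2α that endothelium and hepatocytes express, averaged 95.2 TPM in female HFD vehicle livers and 194 TPM in female LFD vehicle livers, a log2 change of -1.01 ± 0.11 (limma adjusted p = 2.9e-09). Hgf, the hepatocyte growth factor gene, changed by -0.62 and the semaphorin receptor gene Plxnd1 by -0.46. In males given vehicle 4 rose (30.8%) and 1 fell (7.69%), near the shares of all genes, or 1 and 2 with trimmed-mean scaling. Vegfa, made mainly by hepatocytes and the principal ligand of Kdr, fell by 0.58 ± 0.09, with 89.3 TPM in male HFD vehicle livers and 135 TPM in male LFD vehicle livers, while the lymphatic ligand gene Vegfc rose by 0.44, the angiopoietin gene Angpt2 by 0.44 and Hgf by 0.40.

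Of 20 Notch and vascular identity genes, 6 fell (30%) and 1 rose (5%) in females given vehicle, with the connexin gene Gja4 (-0.94), the thrombomodulin gene Thbd (-0.85), Notch4 (-0.66) and Notch1 (-0.43) changing most. In males given vehicle 4 rose (20%, below the share of all genes) and 0 fell: Thbd by 0.76, the endothelin gene Edn1 by 0.55, the endothelin receptor gene Ednrb by 0.51 and the Notch ligand gene Jag1 by 0.34. Of 39 other endothelial genes, 13 fell (33.3%) and 3 rose (7.69%) in females given vehicle, led by the endocytic gene Ehd3 (-0.93), the adhesion receptor gene Adgrf5 (-0.87), the mannose receptor gene Mrc1 (-0.74) and Vcam1 (-0.69). Males given vehicle had 13 that rose (33.3%) and 1 that fell (2.56%), or 7 and 3 with trimmed-mean scaling, led by the fatty acid binding gene Fabp4 (1.36), the leukocyte adhesion genes Vcam1 (0.92) and Icam1 (0.82), and the lipase anchor gene Gpihbp1 (0.56). Vcam1 and Thbd were thus called in opposite directions in the 2 sexes.

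Among 24 BMP response and iron genes, 5 fell (20.8%) and 0 rose in females given vehicle. Id1, a direct BMP target, averaged 12.0 ± 3.85 TPM in female HFD vehicle livers and 37.5 ± 10.9 TPM in female LFD vehicle livers (SD, n = 6 each), a log2 change of -1.58 ± 0.24. The receptor-activated Smad gene Smad9 changed by -1.55, the hepcidin gene Hamp by -1.38 ± 0.25 and the inhibitory Smad gene Smad7 by -0.65. On HFD in males given vehicle, Smad9 changed by -1.25 and Hamp by -0.86, while the BMP modulator gene Bmper (0.66) and the iron sensor gene Hfe (0.57) rose; 7 genes rose (29.2%) and 2 fell (8.33%), near the shares of all genes, or 2 and 3 with trimmed-mean scaling. Hamp averaged 1432 TPM in male HFD mixture livers and 5639 TPM in male LFD mixture livers.

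Among 30 Wnt response and pericentral genes, 7 rose (23.3%) and 6 fell (20%) in females given vehicle, where the Wnt coreceptor gene Lrp5 changed by -1.33, the pericentral cytochrome gene Cyp2e1 by 0.73, the Wnt receptor gene Fzd4 by 0.64 and the ornithine aminotransferase gene Oat by 0.61. Males given vehicle had 9 genes that rose (30%, near the share of all genes) and 5 that fell (16.7%), or 6 and 7 with trimmed-mean scaling, with the ammonium transporter gene Rhbg (1.48), the organic cation transporter gene Slc22a3 (1.24), Cyp1a2 (-1.04) and Oat (0.82) changing most. Axin2, a direct Wnt target, averaged 3.93 ± 1.64 TPM in female HFD vehicle livers and 5.60 ± 1.40 TPM in female LFD vehicle livers (SD, n = 6 each). These groups overlapped widely, from 2.19 to 6.57 TPM on HFD and from 3.65 to 7.22 TPM on LFD. Lgr5, from the same list, averaged 2.04 TPM in female HFD vehicle livers and 1.85 TPM in female LFD vehicle livers.

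Variation from liver to liver within groups was described by correlations. After group means were removed, the median Pearson r over the 666 pairs of genes was 0.31 across the 48 livers, and 592 pairs (88.9%) were positive. Over all pairs of the 15820 genes tested the median r was 0.03 and 55.7% were positive. Kdr and Ptprb had the highest median r with the other genes, 0.48 and 0.47, and Rspo3 and Lyve1 the lowest, 0.06 and 0.08. TPM of all genes share each library's total, so these values are a description.

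Ligands were set beside genes known to respond to them in the same livers, again with group means removed. For Wnt2, Wnt9b and Rspo3 with Axin2 and Lgr5, and for Bmp2 and Bmp6 with Hamp and Id1, 10 relations were computed over 48 livers. None passed a two-sided permutation test within groups after Benjamini-Hochberg adjustment. The largest was Bmp6 with Hamp (r = 0.28, permutation p = 0.097, adjusted p = 0.412; rho = 0.30, permutation p = 0.064, adjusted p = 0.34), and it was 0.22 without the 2 livers farthest from the median of Bmp6, -0.01 in males and 0.50 in females. The difference between the sexes in this r was not tested. Female LFD mixture replicate 3, a library with muscle and adrenal transcripts, had the lowest Bmp6 and the lowest Hamp of its group, 4.43 and 4109 TPM.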

How the data were processed

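Liver RNA of 48 mice was extracted with a column kit, selected for poly(A) and sequenced, per the labels' protocols. The submitters' processing notes name FastQC, Trimmomatic 0.36, STAR 2.5.2b, DESeq2 and GRCm38, without their roles. The authors deposited TPM values, which have the same sum in every library, so depth is unknown and no count test was used.

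Genes that reached 1 TPM in 6 or more libraries were tested on log2(TPM + 1), which understates changes of low genes, with limma 3.58.1 in R 4.3.3. The model had 1 mean for each of 8 groups, 40 residual degrees of freedom and a mean-variance trend. P-values of each of the 19 comparisons were adjusted by Benjamini-Hochberg over all genes tested. The test was checked on simulated data. P-values rest on the spread of mice about their group means, pooled over the 8 groups and drawn toward the trend over genes.

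Alternatives were trimmed-mean scaling (30% of ratios and 5% of levels trimmed), no filter, a pseudocount of 0.1, the replicate number as a block, only the groups compared, and, added after seeing the data, leaving out the 3 libraries with muscle transcripts. The members and lists were chosen with earlier results of these data known. Each called gene of the 37 was named, or the 12 with the largest change, and up to 4 per pathway list in vehicle mice.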

Additional observations from a re-analysis of the deposited data

Results flagged for a closer look

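A single library stood far from the other 5 of its group, by a gap beyond Dixon's 95% critical value, in 23 of 296 gene and group combinations, and chance flags about 1 in 20. In male HFD mixture livers this was Flt1 at 7.96 TPM in replicate 6 (nearest 3.14 TPM), Wnt9b at 2.26 TPM in replicate 6 (nearest 0.934 TPM), Bmp2 at 10.7 TPM in replicate 3 (nearest 10.2 TPM) and Aqp1 at 144 TPM in replicate 6 (nearest 77.2 TPM). In male HFD vehicle livers this was Nos3 at 5.81 TPM in replicate 4 (nearest 3.78 TPM). In male LFD mixture livers this was Ramp2 at 3.16 TPM in replicate 3 (nearest 4.38 TPM) and Sox17 at 2.00 TPM in replicate 2 (nearest 1.43 TPM). In male LFD vehicle livers this was Calcrl at 3.57 TPM in replicate 2 (nearest 5.45 TPM), Sox18 at 4.79 TPM in replicate 5 (nearest 6.40 TPM), Wnt9b at 1.46 TPM in replicate 4 (nearest 0.879 TPM) and Vwf at 2.29 TPM in replicate 4 (nearest 1.54 TPM). In female HFD mixture livers this was Oit3 at 30.9 TPM in replicate 6 (nearest 24.2 TPM), Cdh5 at 31.3 TPM in replicate 6 (nearest 19.9 TPM), Kdr at 17.5 TPM in replicate 6 (nearest 13.1 TPM), Sox18 at 11.1 TPM in replicate 2 (nearest 7.58 TPM) and Aqp1 at 109 TPM in replicate 6 (nearest 81.6 TPM). In female HFD vehicle livers this was Oit3 at 17.8 TPM in replicate 5 (nearest 22.3 TPM), Pecam1 at 7.98 TPM in replicate 5 (nearest 9.13 TPM), Sox17 at 1.05 TPM in replicate 2 (nearest 1.46 TPM) and Nos3 at 3.73 TPM in replicate 3 (nearest 2.59 TPM). In female LFD mixture livers this was Flt1 at 5.65 TPM in replicate 3 (nearest 3.62 TPM), Sox17 at 2.83 TPM in replicate 4 (nearest 2.10 TPM) and Bmp6 at 4.43 TPM in replicate 3 (nearest 8.79 TPM). Male HFD mixture replicate 6 and female LFD mixture replicate 3 are among the libraries with muscle transcripts.

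The effect of HFD differed between males and females given vehicle, by a limma test of the difference itself, with log2 changes in males minus those in females of 1.73 for Lyve1, 1.13 for Cdh5, 0.98 for Stab1, 0.97 for Vwf, 0.96 for Flt4, 0.96 for Pecam1, 0.91 for Oit3, 0.86 for Esam, 0.83 for Sox18, 0.82 for Tek, 0.78 for Ptprb and 0.78 for Wnt2. The effect of HFD differed between males and females given mixture, by a limma test of the difference itself, with log2 changes in males minus those in females of 1.36 for Lyve1, 0.90 for Pecam1, 0.79 for Tie1, 0.76 for Flt1, 0.75 for Vwf, 0.74 for Plvap, 0.73 for Ramp2, 0.69 for Sox18, 0.67 for Esam, 0.66 for Cdh5, 0.64 for Tek and 0.63 for Emcn. The Wnt2 call with vehicle ended with trimmed-mean scaling, no filter and only the groups compared (limma adjusted p = 0.129, 0.104 and 0.0867). With mixture the call of Cdh5 ended in the same settings and without the 3 libraries with muscle transcripts. That of Sox18 ended in the same settings and with the replicate block. That of Plvap ended with scaling and only the groups compared, and that of Tek with scaling and without the 3 libraries.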

How the results depend on the processing

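In males on HFD the mixture called 0 of the 37 genes with no filter and 0 with only the groups compared, against 1 as reported. With trimmed-mean scaling 12 genes were called for HFD against LFD in males given mixture, 9 of them among the 19 as reported. It called 11 for males against females in LFD mixture livers, 10 of them among the 23 as reported, and 9 for the difference of diet effects with mixture, all among the 17 as reported. With only the groups compared, 6 genes separated males from females in HFD vehicle livers, against 2. The cause of these shifts was not tested. Among relations of ligands and responses, r of Bmp2 with Hamp was 0.0391 with scaling, against -0.0301, and r of Wnt9b with Lgr5 was 0.00335 with a pseudocount of 0.1, against -0.0155. Over all comparisons, of 201 calls of the 37 genes scaling ended 55 and added 14, no filter ended 27 and added 0, leaving out the 3 libraries with muscle transcripts ended 13 and added 17, the replicate block ended 4 and added 1, and a pseudocount of 0.1 ended 0 and added 1. Fitting only the groups compared ended 24 of 163 and added 11. Of the 125 results on genes named for the largest changes, scaling ended 20.

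Whether replicate numbers pair the mice was not settled. Over 168 pairs of same-numbered libraries the median correlation of deviations from group means was 0.0131. The highest was 0.438, and 25 were above 0.1. Pairs with different numbers had a median of -0.00505. Of 48 libraries, 14 correlated best with one of their own number, a count that was not tested. With the replicate block, HFD against LFD called 11 genes in males given vehicle, 18 in males given mixture, 24 in females given vehicle and 10 in females given mixture, and the mixture called 1 in males on HFD. Depth is unknown, and few reads may support genes near 1 TPM such as Wnt9b and Emcn.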
